A study of Mus musculus with 12 samples.

Results

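Ribosome biogenesis factors are the nucleolar and nucleoplasmic proteins that make ribosomes without staying in them. A list of 43 such genes was followed here through the 6 groups of the series. They were listed by known function, with earlier results of these data known. All 43 were among the 16283 genes of the deposited table, and all 43 passed the filter on low counts, as 13601 genes did. By role, 2 encode RNA polymerase I subunits (Polr1a, Polr1b), 3 are box C/D snoRNP proteins (Nop56, Nop58, Fbl) and 4 are box H/ACA snoRNP proteins (Dkc1, Gar1, Nhp2, Nop10). A further 17 serve assembly of the small 40S subunit (Rrp9, Rrp12, Nop14, Nol6, Noc4l, Heatr1, Utp20, Utp14a, Utp15, Utp18, Utp4, Wdr43, Wdr75, Tsr1, Ltv1, Bms1, Nat10). The large 60S subunit is served by 13 (Mdn1, Nop2, Bop1, Pes1, Wdr12, Rrp1b, Noc2l, Noc3l, Gnl3, Ppan, Ftsj3, Rrs1, Ebna1bp2), and 4 act at several steps in the nucleolus (Ncl, Npm1, Nolc1, Ddx21).

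RNA polymerase I transcribes the ribosomal RNA precursor in the nucleolus. Small nucleolar RNPs then modify that precursor, the box C/D particles by methylation and the box H/ACA particles by pseudouridylation, while large assembly complexes fold and cleave it into the parts of the 40S and 60S subunits. Transcription of many of these factors is known to be raised by the transcription factor MYC, and ribosome production takes a large share of a growing tumour cell's RNA and protein synthesis.

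RNA was sequenced from 4T1 cells, a BALB/c mouse mammary tumour line used to model triple negative breast cancer. The design asks how the transcriptome differs with Cebpd intact or lost, and how it answers interferon gamma (IFN-gamma). Cebpd encodes a C/EBP transcription factor of inflammatory and acute phase genes. The 6 groups had 2 libraries each: Cebpd sgRNA1, Cebpd sgRNA2 and the Rosa26 sgRNA control, each with IFN-gamma at 20 ng/ml for 24 hours or with vehicle. The treatment protocol text names IFN-gamma for all 12 libraries, so the vehicle libraries were taken from the treatment entry. Known IFN-gamma targets, chosen after the data had been seen, were apart between these labels: Irf1 had 506 to 779 CPM (counts per 1000000 counted reads) in the 6 IFN-gamma libraries, against 22.6 to 127 CPM in the 6 vehicle libraries, and Gbp2 had 719 to 1741 CPM, against 0.930 to 16.1 CPM. The Cebpd sgRNA1 and sgRNA2 libraries are both labelled Cebpd knockout, and Rosa26 is a locus used as a neutral target. Whether each line was a clone or a pool, and where the guides cut, is not stated in the sources used here, so a guide and its line cannot be told apart. No label states that replicate libraries came from separate cultures. The p-values then measure only how these samples spread, and that spread may be technical.

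Total counts ran from 16912710 to 24784371 per library. Cebpd mRNA was present in every library: with vehicle it had 13.6 and 13.4 CPM with sgRNA1, 10.6 and 8.51 CPM with sgRNA2 and 9.09 and 7.13 CPM in control. With IFN-gamma it had 45.9 and 45.6 CPM with sgRNA1, 30.2 and 29.4 CPM with sgRNA2, and 53.5 and 49.1 CPM in control. A guide's edit need not lower its target's mRNA, so these values do not check the labels. Of the 7 epithelial markers, Epcam (195 to 427 CPM), Cdh1, Krt8, Krt18 and Cldn4 exceeded 195 CPM in all 12 libraries, Cldn7 had 38.8 to 111 CPM and the basal keratin Krt14 had 4.22 to 19.0 CPM. Of the leukocyte markers in the table, Ptprc reached at most 0.546 CPM and Itgam 0.161 CPM, but Csf1r reached 8.69 CPM. The endothelial genes Pecam1 and Cdh5 reached at most 0.434 and 0.305 CPM. Of the fibroblast markers, Col1a1 reached 3.82 CPM and Pdgfra had 13.7 to 31.2 CPM.

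Promoters of the members are shown because MYC, a known regulator of many of these factors, binds the E-box, CACGTG. Of the 43 members, 37 had an entry in the RefSeq promoter table (GRCm38.p6; 250 bases before to 50 after the annotated start), and 9 of the 37 (24.3%) held an E-box. Over all promoters of the table the share was 7.24% of 27025, and over those of tested genes 10.2% of 10026. The windows of 30 bases around these 9 E-boxes follow, 5′ to 3′ on the gene's strand with the E-box in capitals.
Mdn1, chr4:32657139-32657168, plus strand: caacgtgaattccttcacCACGTGtgtgtc
Nop2, chr6:125131811-125131840, plus strand: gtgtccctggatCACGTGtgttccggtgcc
Pes1, chr11:3963965-3963994, plus strand: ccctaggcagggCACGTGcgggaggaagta
Tsr1, chr11:74898092-74898121, plus strand: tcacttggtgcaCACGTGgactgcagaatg
Utp4, chr8:106893643-106893672, plus strand: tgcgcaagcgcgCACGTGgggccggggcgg
Utp18, chr11:93885769-93885798, minus strand: gcgagcgccggtCACGTGgcttgcggcggc
Utp20, chr10:88826765-88826794, minus strand: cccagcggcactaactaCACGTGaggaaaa
Wdr43, chr17:71616220-71616249, plus strand: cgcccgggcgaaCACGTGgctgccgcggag
Ltv1, chr10:13193092-13193121, minus strand: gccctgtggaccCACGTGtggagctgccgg
In 7 of the 9 the E-box began at or after the annotated start, and in Nop2 and Utp18 it began at -60 and -20. The ETS motif CCGGAAG was in 37.8% of the member promoters, against 9.12% of all promoters and 18.9% of those of tested genes. The C/EBP motif TTGCNNAA was in 8.11%, against 10.8% and 7.99%, and the STAT motif TTCNNNGAA in 10.8%, against 8.47% and 6.99%. The YY1 motif AAGATGGC was in 2.70%, against 2.88% and 4.82%. All motifs were searched on both strands, and a match describes the sequence without showing that a factor binds there.

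Per kilobase of exon, levels of the members spanned a wide range. Npm1, a histone chaperone of the nucleolus, averaged 739 RPKM (CPM per kilobase of merged exons) over the 12 libraries, and Nhp2, an H/ACA snoRNP core protein, averaged 112 RPKM. Mdn1, the giant AAA ATPase that remodels 60S precursors, was the lowest at 2.33 RPKM. The smallest count of any member in any library was 112, for Rrp12, so every member was well above the counting floor in every group.

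With vehicle, mRNA of nearly all ribosome biogenesis factors was lower in the mean of the Cebpd guide lines than in the control line. It was lower for every member with sgRNA2, and for most but not all members with sgRNA1. Against control, the log-scale mean of the guides was lower for 41 of 43 members and higher for 0 (edgeR's quasi-likelihood test, Benjamini-Hochberg adjusted p below 0.05), where 33.7% of all genes tested were called lower. The median log2 fold change of the members was -1.05, against 0.03 for all genes tested, and 24 members were at least 2-fold lower. The shares of all genes given here and below carry no 2-fold threshold, so they do not apply to the 2-fold counts. All 4 guide libraries were below both control libraries for 35 members. How many of all genes tested were separated in this way was not counted. Called lower were 2 of 2 RNA polymerase I subunits (median -1.33), 17 of 17 40S factors (-1.04), 13 of 13 60S factors (-1.01), 3 of 3 box C/D proteins (-0.78) and 3 of 4 box H/ACA proteins (-0.85). Not called were Nop10 (log2 fold change -0.04 ± 0.05 SE, adjusted p = 0.484, edgeR) and Npm1 (-0.05 ± 0.04, adjusted p = 0.26, edgeR). Both were called lower once the trend of log CPM with exon length was removed (-0.39 for Nop10 and -0.19 for Npm1). The guides differed from each other, and the SE of their mean does not hold that difference. With the 4 guide libraries as 1 group, whose spread then includes it, 14 of the 43 members were called, all lower, where 14.8% of genes tested were called lower in that fit, among them Polr1a, Mdn1, Utp20 and Ncl.

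**Figure D1:**
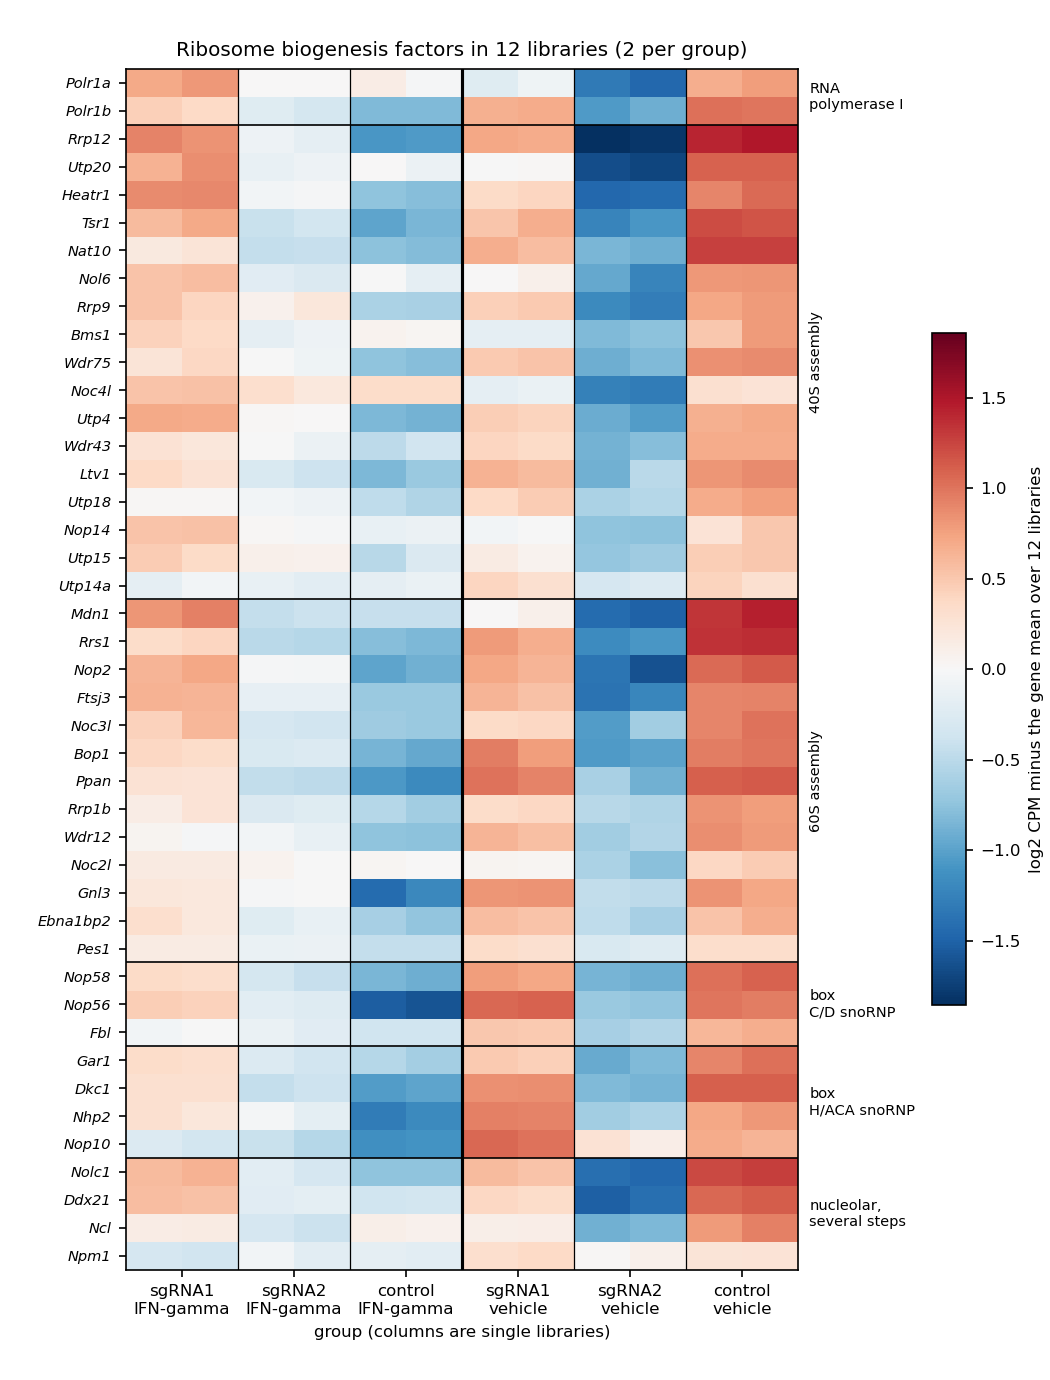
Rows are the 43 members by role and columns are the 12 libraries (IFN-gamma left, vehicle right). Colour is log2 CPM minus the gene's mean over all 12 libraries. Control vehicle had the highest group mean for 34 members, and sgRNA2 vehicle had the lowest for 31 (counted over the members only).

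Among the enzymes that start the pathway, Polr1a, the largest subunit of RNA polymerase I, had 45.9 and 50.7 CPM with sgRNA1 and 21.6 and 19.5 CPM with sgRNA2, against 85.2 and 92.2 CPM in control (all vehicle). Polr1b, the second largest subunit, had 43.0 and 43.9 CPM with sgRNA1 and 13.1 and 14.5 CPM with sgRNA2, against 55.2 and 53.8 CPM in control. For both subunits the 3 lines did not overlap, with sgRNA2 lowest and control highest. The mean of the guides differed from control by a log2 fold change of -1.49 ± 0.06 for Polr1a and -1.16 ± 0.06 for Polr1b (adjusted p = 4.25e-13 and 6.28e-12, edgeR). Polr1b was not called with the guides as 1 group (adjusted p = 0.12).

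The snoRNP proteins showed the guides apart from each other. Nop56, a core protein of box C/D particles, had 534 and 542 CPM with sgRNA1 and 158 and 154 CPM with sgRNA2, against 506 and 491 CPM in control. Nhp2 had 216 and 213 CPM with sgRNA1 and 72.4 and 75.9 CPM with sgRNA2, against 185 and 198 CPM in control. In both genes the sgRNA1 libraries were above control and the sgRNA2 libraries far below it, so the mean of the guides (log2 fold change -0.78 ± 0.04 for Nop56 and -0.60 ± 0.05 for Nhp2) describes neither line. Neither was called with the guides as 1 group (adjusted p = 0.401 for Nop56 and 0.438 for Nhp2, edgeR).

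Of the 40S factors, Rrp12, which serves the export and maturation of pre-40S particles, had 36.4 and 35.5 CPM with sgRNA1 and 6.12 and 6.35 CPM with sgRNA2, against 59.1 and 61.8 CPM in control. Utp20, a scaffold of the small subunit processome, had 65.3 and 66.6 CPM with sgRNA1 and 20.9 and 20.1 CPM with sgRNA2, against 141 and 140.1 CPM in control. Wdr43, a processome component, had 186 and 181 CPM with sgRNA1 and 76.8 and 81.9 CPM with sgRNA2, against 228 and 227 CPM in control. All 3 genes were ordered sgRNA2, sgRNA1, control from low to high without overlap. The log2 fold change of the mean of the guides was -2.01 ± 0.06 for Rrp12 (adjusted p = 1.96e-14), -1.93 ± 0.06 for Utp20 (9.78e-15) and -0.92 ± 0.04 for Wdr43 (3.35e-12, all edgeR). With the guides as 1 group Rrp12 (adjusted p = 0.083) and Wdr43 (0.0735) were no longer called.

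Among the 60S factors, Mdn1 had 41.9 and 44.5 CPM with sgRNA1 and 15.4 and 14.8 CPM with sgRNA2, against 104 and 114 CPM in control. Its log2 fold change of -2.09 ± 0.05 was the largest fall of any member (adjusted p = 2.31e-15, edgeR). Mdn1 also had the longest merged exons of any member (21836 bases). In this comparison fold changes of the members fell with exon length (Spearman's rho -0.37), and the part of length in the rank of Mdn1 was not tested. Nop2, which methylates the RNA of the large subunit, had 124 and 117 CPM with sgRNA1 and 29.6 and 24.8 CPM with sgRNA2, against 158 and 167 CPM in control. Rrs1, which serves incorporation of the 5S particle, had 101 and 93.0 CPM with sgRNA1 and 25.9 and 27.5 CPM with sgRNA2, against 148 and 149.6 CPM in control. In these 3 genes, too, the lines did not overlap and sgRNA2 was lowest. Ppan, a pre-60S factor, had 98.4 and 92.3 CPM with sgRNA1 and 32.1 and 26.2 CPM with sgRNA2, against 105 and 107 CPM in control. Gnl3 (nucleostemin), a GTPase of the large subunit pathway, had 210.0 and 212 CPM with sgRNA1 and 86.7 and 85.1 CPM with sgRNA2, against 213 and 196 CPM in control. Here the sgRNA2 libraries were far below both other lines, while the test of sgRNA1 against control gave an adjusted p of 0.0506 for Ppan and 0.494 for Gnl3 (edgeR). Ppan was called lower with RLE scaling (adjusted p = 0.0416), with total counts (0.0398), with the length trend removed (0.0195) and without sgRNA2 vehicle replicate 1 (0.0157), sgRNA2 vehicle replicate 2 (0.0156) or sgRNA2 IFN-gamma replicate 1 (0.0349). Gnl3 was called higher with upper quartile scaling (0.0275, all edgeR).

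Nolc1, a nucleolar chaperone of snoRNPs, had 161 and 155 CPM with sgRNA1 and 40.5 and 39.1 CPM with sgRNA2, against 251 and 261 CPM in control. Ncl (nucleolin) had 921 and 933 CPM with sgRNA1 and 458 and 481 CPM with sgRNA2, against 1477 and 1633 CPM in control. Both genes were lower with each guide, though Nolc1 was not called with the guides as 1 group (adjusted p = 0.0633, edgeR). Npm1 had 2403 and 2507 CPM with sgRNA1 and 1963 and 2070.5 CPM with sgRNA2, against 2299 and 2312 CPM in control. For Npm1 the guides lay on either side of control. It was called lower with sgRNA2 (log2 fold change -0.19 ± 0.05, adjusted p = 0.00102, edgeR) and not with sgRNA1 (0.09 ± 0.05, adjusted p = 0.108, edgeR). The sgRNA2 call was lost with upper quartile scaling (adjusted p = 0.612), and the mean of the guides turned to a call at -0.09 without sgRNA2 vehicle replicate 2 (adjusted p = 0.0413) and at -0.08 without sgRNA2 IFN-gamma replicate 1 (0.0212, edgeR).

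**Figure D2:**
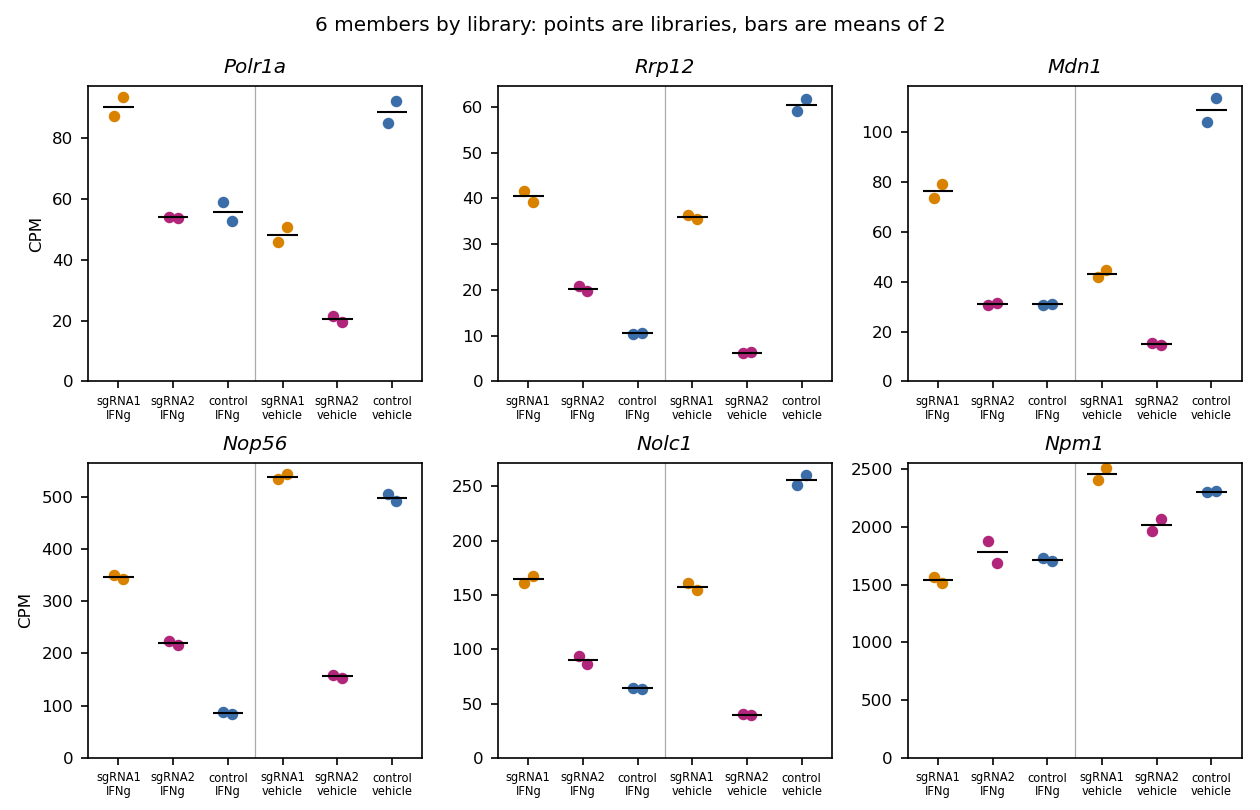
CPM of 6 members by library, with points for libraries and bars for the mean of 2. Polr1a, Rrp12, Mdn1 and Nolc1 fall into the order sgRNA2, sgRNA1, control with vehicle, whereas Nop56 is as high with sgRNA1 as in control and Npm1 differs little.

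Taken guide by guide, the whole set was lower with sgRNA2, and most of it was lower by less with sgRNA1. With sgRNA2 against control, 43 of 43 members were called lower, where 35% of genes tested were, with a median log2 fold change of -1.73 and 39 members at least 2-fold lower. The range ran from -3.28 for Rrp12 to -0.19 for Npm1. With sgRNA1 against control, 33 members were called lower, where 26.9% of genes tested were, and 3 higher, where 25.6% were, with a median of -0.36. The 3 higher members were Nop10 (0.37 ± 0.06), Nhp2 (0.17 ± 0.05) and Nop56 (0.11 ± 0.04), all snoRNP proteins. None of these 3 rises held once the trend of log CPM with exon length was removed: Nop10 (0.05) and Nop56 (0.09) were then not called, and Nhp2 was called lower (-0.15, adjusted p = 0.00797, edgeR). Nop56 also lost its call without control vehicle replicate 2 (adjusted p = 0.18), sgRNA1 vehicle replicate 1 (0.072) or 2 (0.142), or sgRNA2 IFN-gamma replicate 1 (0.0518), and with scaling by total counts (0.0532, all edgeR). Nhp2 lost it without control vehicle replicate 1 (adjusted p = 0.15) or sgRNA1 vehicle replicate 1 (0.0771, edgeR). The control libraries are shared by these comparisons.

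The guides were also tested against each other. With vehicle, 43 of 43 members were lower with sgRNA2 than with sgRNA1, where 29.1% of genes tested were, with a median log2 fold change of -1.34. Rrp12 differed most between the guides, at -2.53 ± 0.09, and Npm1 least, at -0.28 ± 0.05. Group means ran sgRNA2, sgRNA1, control from low to high for 38 members, an order counted over the members only.

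**Figure D3:**
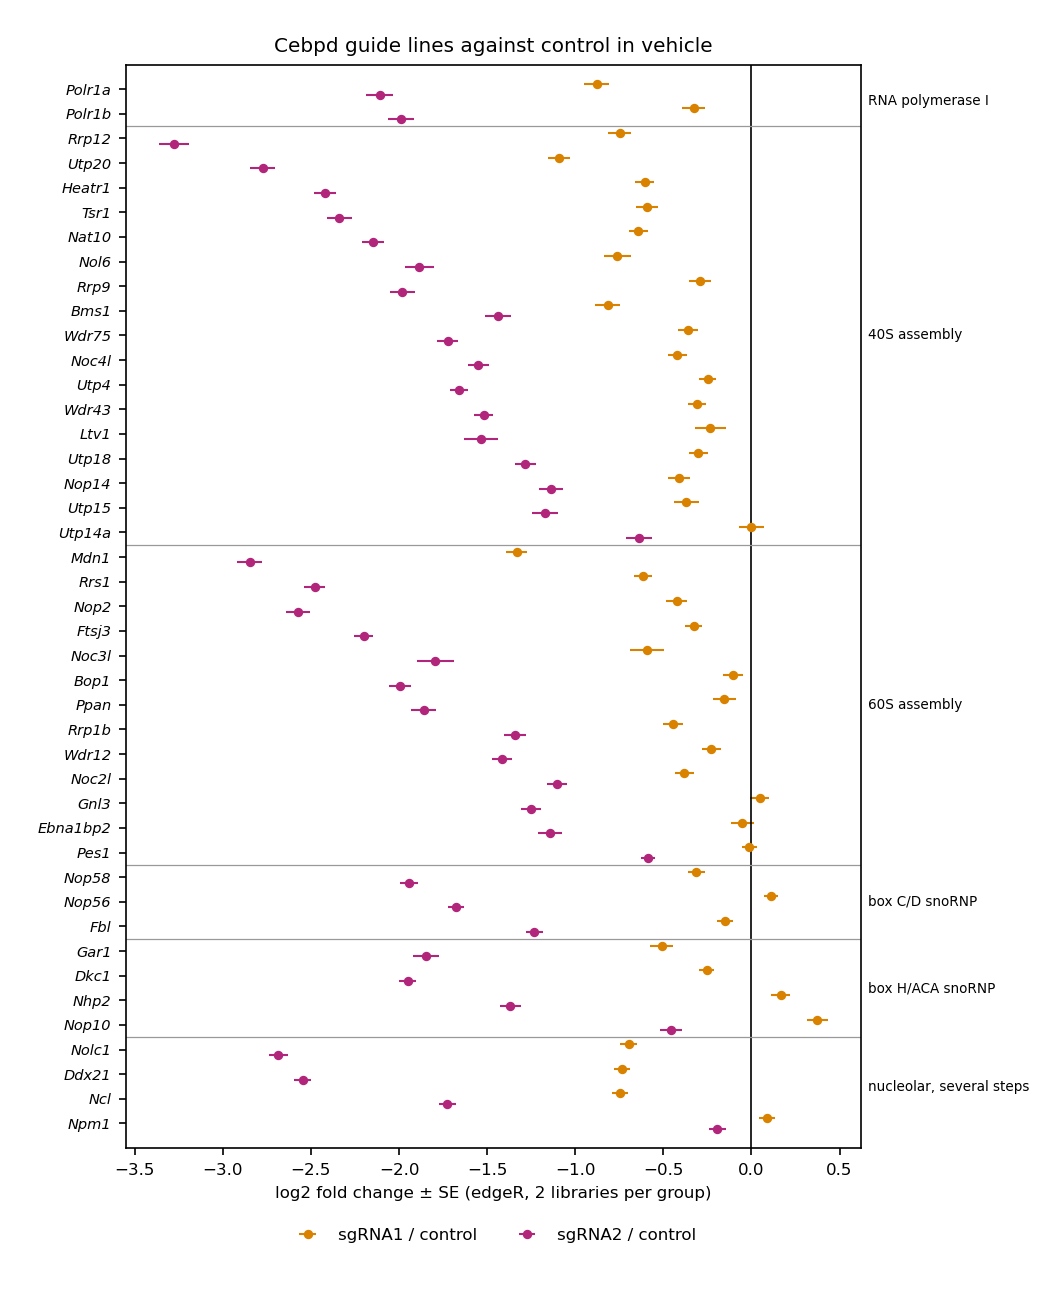
Log2 fold change ± SE (edgeR) of each member with vehicle, for sgRNA1 over control and sgRNA2 over control, by role. The sgRNA2 points lie left of the sgRNA1 points for all 43 members, between -3.28 and -0.19.

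Counts in the 4 guide libraries moved in other groups of genes as well. Of 106 further pathway genes, 78 were lower and 10 higher in the mean of the guides (median -0.52), with the largest fall in Urb1, a 60S assembly factor (-1.93 ± 0.09), and the largest rise in Taf1b, a subunit of the RNA polymerase I selectivity factor (0.89 ± 0.07). The 85 cytosolic ribosomal protein genes went the other way, with 76 higher and 2 lower (median 0.52). No share of all genes called higher is set beside this count. Of 20 S phase genes, 16 were lower and 2 higher (median -0.61). Mitochondrially encoded genes took 0.814% and 0.839% of counts with sgRNA1 and 1.12% and 1.14% with sgRNA2, against 0.67% and 0.62% in control. The summed CPM of the 3 leukocyte markers in the table was 2.19 to 3.86 with sgRNA1 and 7.65 to 9.23 with sgRNA2, against 1.07 to 1.09 in control, nearly all of it Csf1r, while Ptprc and Itgam stayed near 0. That of the 2 fibroblast markers was 18.4 to 20.3 with sgRNA1 and 30.8 to 31.3 with sgRNA2, against 13.9 to 15.0 in control. The part of the mitochondrial share, the cell cycle genes or these markers in the members' fall was not tested, and fewer cells of a type and less RNA per cell cannot be told apart in bulk samples.

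Summed over the 43 members, the share of all counts with vehicle was 0.773% and 0.776% with sgRNA1. It was 0.401% and 0.410% with sgRNA2, against 0.923% and 0.955% in control. This sum leans on the members of highest CPM and need not describe the typical member. With sgRNA2 and vehicle, the members acting at several steps, Npm1 among them, had 2526 and 2661 CPM. All members together had 4135 and 4261 CPM there. Ribosomal protein genes took 11.5% and 11.6% with sgRNA1 and 13.2% and 13.8% with sgRNA2, against 8.83% and 8.92% in control. The members' share and the ribosomal protein share thus ran in opposite order over the 3 lines with vehicle. Neither share was corrected for exon length. Over all genes, Spearman's rho of fold change with exon length was -0.37 for sgRNA1 and -0.19 for sgRNA2 with vehicle. The part of length in the opposite order was not tested.

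**Figure D4:**
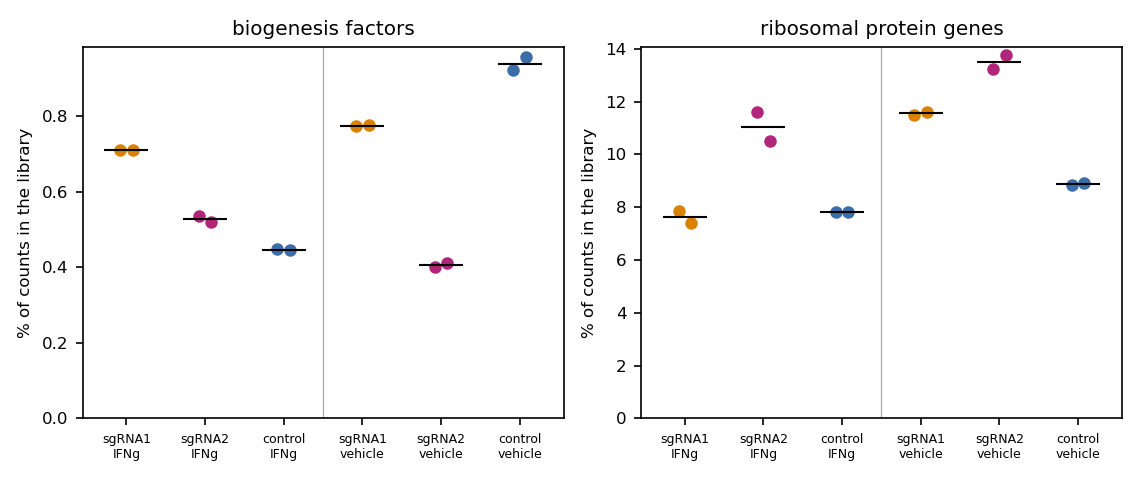
Percent of each library's counts taken by the 43 biogenesis factors (left) and by the cytosolic ribosomal protein genes (right), with points for libraries and bars for the mean of 2. With vehicle the order of the lines is reversed between the panels. It runs from 0.401% for sgRNA2 to 0.955% for control on the left, and from 13.8% to 8.83% on the right. Neither share is corrected for exon length, and the left panel leans on the members of highest CPM.

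In control cells, almost every ribosome biogenesis factor fell with IFN-gamma. Against vehicle, 42 of 43 members were lower and 0 higher (edgeR, adjusted p below 0.05), where 34.1% of genes tested were lower, and 32 were at least 2-fold lower. The median log2 fold change was -1.59, against 0.01 for all genes tested. The fall reached -1.94 in the median of the box C/D proteins, -1.89 of the box H/ACA proteins and -1.63 of the 60S factors. The 40S factors had a median of -1.24 with 16 of 17 lower. Noc4l, a 40S factor, was the member not called (0.07 ± 0.05, adjusted p = 0.272, edgeR).

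Nop56 had 88.3 and 84.2 CPM in control cells with IFN-gamma, against 506 and 491 CPM with vehicle. Rrp12 had 10.4 and 10.7 CPM with IFN-gamma, against 59.1 and 61.8 CPM with vehicle. Ppan had 23.4 and 21.5 CPM with IFN-gamma, against 105 and 107 CPM with vehicle. These 3 genes fell most, by 2.53 ± 0.05, 2.52 ± 0.07 and 2.24 ± 0.07 on the log2 scale (adjusted p = 1.53e-18, 2.36e-15 and 9.89e-15, edgeR), without overlap of libraries. Rrs1 had 33.5 and 32.5 CPM with IFN-gamma, against 148 and 149.6 CPM with vehicle, and Gnl3 had 44.6 and 52.2 CPM, against 213 and 196 CPM. Mdn1 had 30.8 and 31.0 CPM with IFN-gamma, against 104 and 114 CPM with vehicle, and Nop2 had 38.6 and 41.1 CPM, against 158 and 167 CPM. These large subunit factors fell by 1.81 ± 0.06 (Mdn1) to 2.17 ± 0.06 (Rrs1) on the log2 scale, without overlap of libraries.

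The RNA polymerase I subunits fell unequally. Polr1b had 15.4 and 15.4 CPM in control cells with IFN-gamma, against 55.2 and 53.8 CPM with vehicle (log2 fold change -1.82 ± 0.07, adjusted p = 1.06e-13, edgeR). Polr1a had 58.9 and 52.7 CPM with IFN-gamma, against 85.2 and 92.2 CPM with vehicle (-0.67 ± 0.07, adjusted p = 5.54e-08, edgeR). The call for Polr1a was lost when the guide libraries were pooled into 1 group in the same fit (adjusted p = 0.229). Ncl had 919 and 899.7 CPM with IFN-gamma, against 1477 and 1633 CPM with vehicle, and Npm1 had 1726 and 1703 CPM, against 2299 and 2312 CPM. These 2 nucleolar proteins fell by 0.77 ± 0.05 and 0.43 ± 0.05 on the log2 scale, less than the median member.

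Of the 106 further pathway genes, 94 were lower and 4 higher with IFN-gamma in control (median -1.02), from Urb1 at -2.32 ± 0.11 to Nop53, a 60S factor, at 0.66 ± 0.06. Of the 85 ribosomal protein genes 42 were lower and 6 higher (median -0.16). The mitochondrial share was 1.03% and 1.18% in control with IFN-gamma, against 0.67% and 0.62% with vehicle. The summed CPM of the 2 fibroblast markers was 23.8 to 24.2 with IFN-gamma, against 13.9 to 15.0 with vehicle, and that of the 3 leukocyte markers 0.595 to 0.745, against 1.07 to 1.09. The part of these in the fall was not tested.

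Relative to the 40S factors, the summed CPM of the 60S factors was lower with IFN-gamma in each line. In control the ratio of the summed CPM of the 13 60S factors to that of the 17 40S factors was 0.840 and 0.828 with IFN-gamma, against 1.04 and 1.02 with vehicle. With sgRNA1 it was 0.907 and 0.906 with IFN-gamma, against 1.20 and 1.15 with vehicle, and with sgRNA2 0.930 and 0.940, against 1.18 and 1.13. In each line the IFN-gamma libraries were below the vehicle libraries, and with either treatment both guides were above control. The ratio is given without a test. A sum leans on the factors of highest CPM, such as Gnl3 (mean 134 CPM, 60S) and Wdr43 (150 CPM, 40S). It need not describe the typical factor of either role.

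In the guide lines the set did not fall as a whole with IFN-gamma. For the mean of the guides, 26 members were higher with IFN-gamma, where 34.7% of genes tested were, and 5 lower, with a median log2 fold change of 0.27. With sgRNA2, 40 of 43 were higher, where 30.5% of genes tested were, and 2 lower (Nop10, -0.68 ± 0.07, and Npm1, -0.18 ± 0.05), with a median of 0.66. The call for Npm1 was lost without sgRNA2 vehicle replicate 2 (adjusted p = 0.152) or sgRNA2 IFN-gamma replicate 2 (0.0611), and with the length trend removed (0.0719, edgeR). With sgRNA1 the set split, with 12 higher, where 31.7% were, and 22 lower, where 29.6% were, and a median of -0.14 that scaling by total counts turned to 0.01, with 19 higher and 15 lower. Of the 40S factors 9 rose and 6 fell with sgRNA1, of the 60S factors 1 rose and 8 fell, and of the 7 snoRNP proteins 0 rose and 6 fell. With the guides as 1 group, 4 of 43 members were called higher, where 18.6% of genes tested were, and 2 lower, where 17.6% were, so neither share of the members was above that of all genes. With sgRNA2 the mitochondrial share was 0.628% and 0.533% with IFN-gamma, against 1.12% and 1.14% with vehicle, the leukocyte sum 1.02 to 1.49 CPM, against 7.65 to 9.23 CPM, and the fibroblast sum 22.3 to 27.2 CPM, against 30.8 to 31.3 CPM. With sgRNA1 the mitochondrial share was 0.544% and 0.540% with IFN-gamma, against 0.814% and 0.839% with vehicle, the leukocyte sum 1.57 to 1.73 CPM, against 2.19 to 3.86 CPM, and the fibroblast sum 29.9 to 33.3 CPM, against 18.4 to 20.3 CPM. The part of these in the responses was not tested.

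Rrp12 had 20.8 and 19.7 CPM with IFN-gamma in the sgRNA2 line, against 6.12 and 6.35 CPM with vehicle (log2 fold change 1.70 ± 0.09). In the sgRNA1 line it had 41.7 and 39.3 CPM with IFN-gamma, against 36.4 and 35.5 CPM with vehicle (0.17 ± 0.07, adjusted p = 0.0328, edgeR), a call lost without sgRNA1 vehicle replicate 1 (adjusted p = 0.0758), sgRNA1 vehicle replicate 2 (0.136) or sgRNA1 IFN-gamma replicate 1 (0.209). The rise with sgRNA2 kept its call whichever 1 library was left out. Polr1a had 87.2 and 93.6 CPM with IFN-gamma in the sgRNA1 line, against 45.9 and 50.7 CPM with vehicle, and 54.2 and 53.9 CPM in the sgRNA2 line, against 21.6 and 19.5 CPM. It rose by 0.91 ± 0.07 with sgRNA1 and 1.40 ± 0.08 with sgRNA2 on the log2 scale (adjusted p = 2.04e-09 and 5.19e-11, edgeR). Polr1b did not follow it with sgRNA1: it had 36.8 and 35.0 CPM with IFN-gamma, against 43.0 and 43.9 CPM with vehicle (-0.28 ± 0.07, adjusted p = 0.00142, edgeR, and 0.103 with scaling by total counts), while sgRNA2 had 23.2 and 21.6 CPM, against 13.1 and 14.5 CPM (0.70 ± 0.08).

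Mdn1 and Utp20 rose in both guide lines. Mdn1 had 73.4 and 79.2 CPM with IFN-gamma with sgRNA1, against 41.9 and 44.5 CPM with vehicle, and 30.5 and 31.6 CPM with sgRNA2, against 15.4 and 14.8 CPM. Utp20 had 102 and 119 CPM with sgRNA1, against 65.3 and 66.6 CPM, and 59.7 and 61.2 CPM with sgRNA2, against 20.9 and 20.1 CPM. Neither gene's libraries overlapped between treatments within a line. Nop56, in contrast, had 349 and 341 CPM with IFN-gamma with sgRNA1, against 534 and 542 CPM with vehicle, and 223 and 216 CPM with sgRNA2, against 158 and 154 CPM. It fell in 1 guide line and rose in the other.

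**Figure D5:**
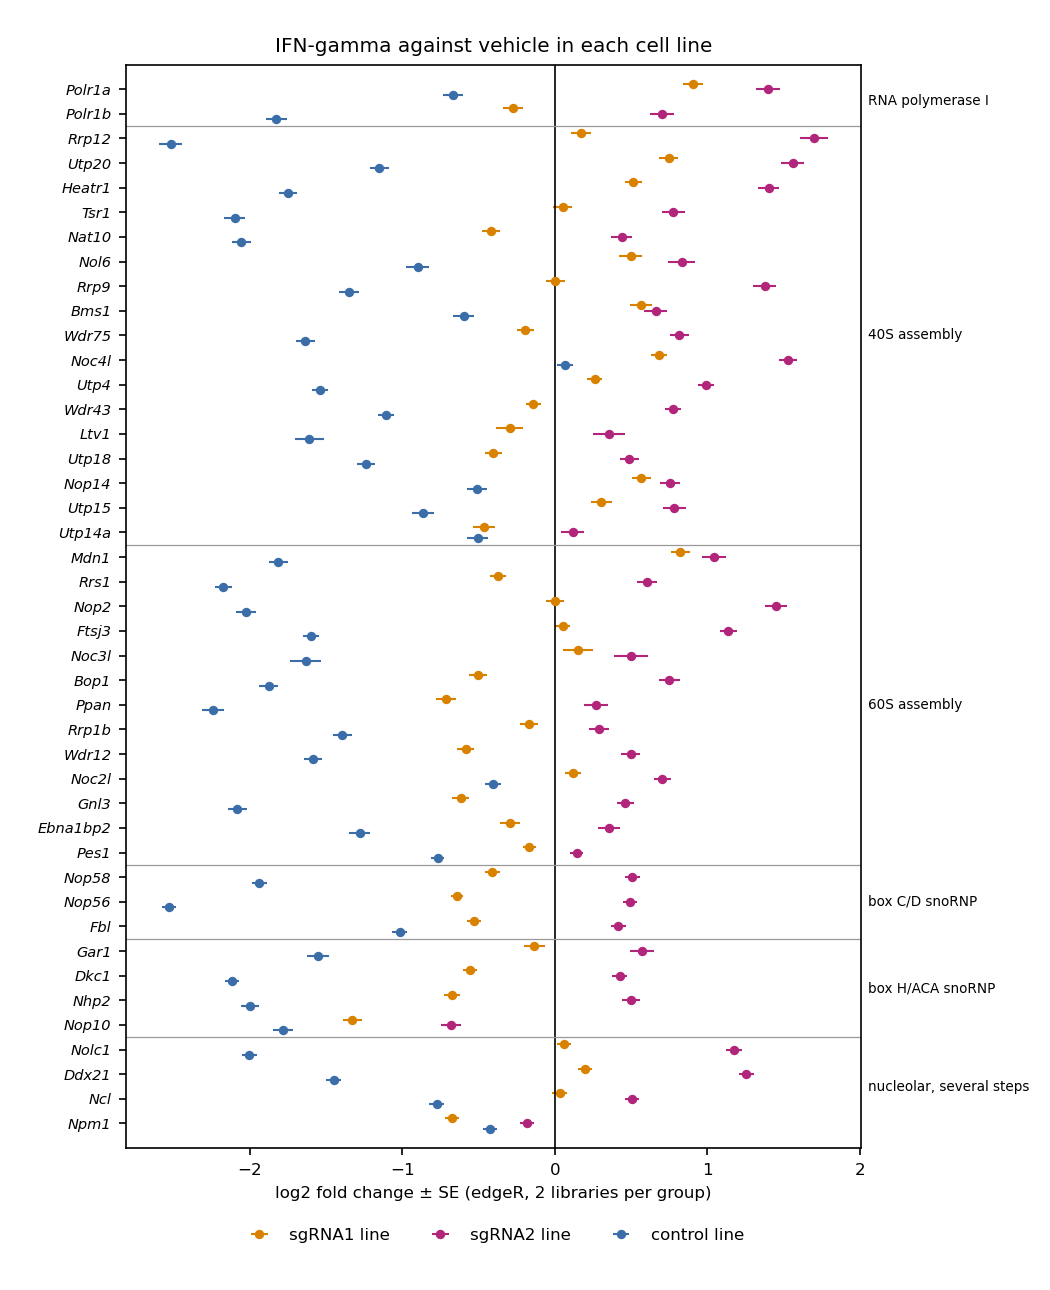
Log2 fold change ± SE (edgeR) of each member with IFN-gamma over vehicle in the sgRNA1, sgRNA2 and control lines, by role. Control points lie below 0 for 42 of 43 members with a median of -1.59, sgRNA2 points above 0 for 41, and sgRNA1 points on both sides.

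The response to IFN-gamma differed between the guide lines. The test of that difference, added after the data had been seen, called 39 of 43 members higher with sgRNA2 than with sgRNA1, where 20.9% of genes tested were, and 0 lower, with a median of 0.86. Rrp12 differed most, at 1.53 ± 0.11 (adjusted p = 1.31e-08, edgeR), and Bms1, a 40S factor, least, at 0.10 ± 0.10 (adjusted p = 0.485, edgeR). Mdn1, which rose in both lines, did not pass the test of the difference (0.22 ± 0.10, adjusted p = 0.0863, edgeR). It did once the trend with exon length was removed (0.61, adjusted p = 2.91e-05). The sgRNA2 line started from the lowest vehicle level in all 43 members.

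With IFN-gamma in all lines, the guide lines had more mRNA of most ribosome biogenesis factors than control. The mean of the guides was higher for 37 of 43 members, where 32.5% of genes tested were, and lower for 1, with a median log2 fold change of 0.72 against 0.02 for all genes tested. All 4 guide libraries were above both control libraries for 33 members, a count made over the members only. With sgRNA1 40 members were higher, where 31.6% of genes tested were, with a median of 0.99. With sgRNA2 32 were higher, where 30.2% of genes tested were, with a median of 0.44. In all, 41 members were called with sgRNA1 and 34 with sgRNA2, and those called but not higher were lower. Between the guides, 39 members were lower with sgRNA2 than with sgRNA1, where 24.5% of genes tested were, and 1 was higher (Npm1, 0.21 ± 0.05). With the guides as 1 group, 5 of 43 members were called, all higher (Nop56, Nhp2, Nop10, Gnl3 and Utp4), where 14.5% of genes tested were called higher, so the members' share was not above that of all genes.

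Nop56, Nhp2 and Gnl3 were higher with each guide than in control. Nop56 had 349 and 341 CPM with sgRNA1 and 223 and 216 CPM with sgRNA2, against 88.3 and 84.2 CPM in control, all with IFN-gamma (log2 fold change of the mean of the guides 1.67 ± 0.04, adjusted p = 2.1e-15, edgeR). Nhp2 had 139 and 131 CPM with sgRNA1 and 110.2 and 99.9 CPM with sgRNA2, against 45.8 and 49.9 CPM in control (1.31 ± 0.05). Gnl3 had 138 and 137 CPM with sgRNA1 and 118 and 119 CPM with sgRNA2, against 44.6 and 52.2 CPM in control (1.40 ± 0.06). In all 3 genes every guide library was above both control libraries.

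Rrp12 had 41.7 and 39.3 CPM with sgRNA1 and 20.8 and 19.7 CPM with sgRNA2, against 10.4 and 10.7 CPM in control with IFN-gamma (1.44 ± 0.07). Nop2 had 117 and 125 CPM with sgRNA1 and 75.0 and 74.3 CPM with sgRNA2, against 38.6 and 41.1 CPM in control (1.26 ± 0.06). Nolc1 had 161 and 168 CPM with sgRNA1 and 93.7 and 86.7 CPM with sgRNA2, against 64.2 and 63.7 CPM in control (0.93 ± 0.04). These 3 genes did not overlap between lines, and their order was control, sgRNA2, sgRNA1 from low to high. The group means of 35 members had that order, which was counted over the members only. Rrp12 was not called with the guides as 1 group (adjusted p = 0.128, edgeR).

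Of the other large subunit and 40S factors named above, Ppan had 58.7 and 57.9 CPM with sgRNA1 and 35.6 and 34.9 CPM with sgRNA2, against 23.4 and 21.5 CPM in control. Rrs1 had 73.4 and 76.9 CPM with sgRNA1 and 41.2 and 40.1 CPM with sgRNA2, against 33.5 and 32.5 CPM in control. Wdr43 had 170.4 and 163 CPM with sgRNA1 and 140.0 and 131 CPM with sgRNA2, against 101 and 111 CPM in control. All 3 were higher with each guide, without overlap with control. Polr1b, too, was above control with each guide, at 36.8 and 35.0 CPM with sgRNA1 and 23.2 and 21.6 CPM with sgRNA2, against 15.4 and 15.4 CPM in control.

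Other members did not follow, and those with values in every library are given here. Mdn1 (30.5 and 31.6 CPM with sgRNA2, against 30.8 and 31.0 CPM in control), Utp20 (59.7 and 61.2 CPM, against 65.8 and 60.6 CPM) and Polr1a (54.2 and 53.9 CPM, against 58.9 and 52.7 CPM) overlapped control with sgRNA2 and were above it only with sgRNA1. With the length trend removed, sgRNA2 was called higher than control for Mdn1 (0.53), Utp20 (0.20) and Polr1a (0.27). Ncl had 943 and 952 CPM with sgRNA1 and 686 and 649 CPM with sgRNA2, against 919 and 899.7 CPM in control, and was the member called lower in the mean of the guides (-0.19 ± 0.04, adjusted p = 0.000392, edgeR). That call was lost with scaling by total counts (-0.07) and turned to 0.02 with the length trend removed. Npm1 had 1565 and 1510.4 CPM with sgRNA1 and 1876 and 1688 CPM with sgRNA2, against 1726 and 1703 CPM in control, and was not called in the mean of the guides (-0.05 ± 0.04, adjusted p = 0.274, edgeR).

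Of the 106 further pathway genes, 89 were higher and 8 lower in the mean of the guides with IFN-gamma (median 0.64), from Nop53 at -0.64 ± 0.05 to Mphosph10, a small subunit processome protein, at 1.64 ± 0.07. Ribosomal protein genes took 7.87% and 7.40% of counts with sgRNA1 and 11.6% and 10.5% with sgRNA2, against 7.82% and 7.83% in control. The members took 0.710% and 0.711% with sgRNA1 and 0.535% and 0.520% with sgRNA2, against 0.448% and 0.444% in control. The mitochondrial share was 0.544% and 0.540% with sgRNA1 and 0.628% and 0.533% with sgRNA2, against 1.03% and 1.18% in control. The leukocyte sum was 1.57 to 1.73 CPM with sgRNA1 and 1.02 to 1.49 CPM with sgRNA2, against 0.595 to 0.745 CPM in control, and the fibroblast sum 29.9 to 33.3 CPM with sgRNA1 and 22.3 to 27.2 CPM with sgRNA2, against 23.8 to 24.2 CPM in control. The part of these was not tested.

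The interaction set the response to IFN-gamma of the guide lines against that of control. It was called positive for 42 of 43 members, where 30.5% of genes tested were, and negative for 0. The median was 1.94 on the log2 scale, against -0.05 for all genes tested, and 37 members exceeded a 2-fold difference. The medians were 1.93 for Polr1a and Polr1b, 1.99 for the box C/D proteins, 1.84 for the box H/ACA proteins, 1.64 for the 40S factors and 1.999 for the 60S factors. Rrp12 had the largest difference (3.45 ± 0.09, adjusted p = 5.12e-15, edgeR), made of a rise of 0.93 in the mean of the guides and a fall in control of 2.52. Nop2 (2.75 ± 0.08), Mdn1 (2.74 ± 0.08), Heatr1, a processome scaffold (2.71), and Nolc1 (2.62 ± 0.06) followed. Polr1a (1.82 ± 0.09) and Polr1b (2.04 ± 0.09) had a positive difference as well. Npm1 was at 0.00 ± 0.06 (adjusted p = 0.994, edgeR), with -0.25 ± 0.06 for sgRNA1 and 0.25 ± 0.06 for sgRNA2. With the guides as 1 group, 18 members were called, all positive, where 7.94% of genes tested were called positive in that fit, among them Rrp12, Mdn1, Heatr1, Nop56 and Polr1a, while Nop2 (adjusted p = 0.0547) and Polr1b (0.0625, edgeR) were not. Of the 106 further pathway genes, 91 were positive and 5 negative (median 1.13), from Nop53 at -0.80 ± 0.07 to Bysl, a 40S factor, at 3.05 ± 0.09. Of the 13 RNA polymerase I genes among them 8 were positive and 1 negative (median 0.76). The subunits Polr1e (2.10 ± 0.13), Polr1f (1.56 ± 0.09) and Cd3eap (1.27 ± 0.12) were called positive. Polr1c (-0.05 ± 0.07), Polr1d (-0.0013 ± 0.07) and Polr1h (-0.19 ± 0.14) were not called.

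Myc mRNA was measured in the same libraries. With vehicle it averaged 156 ± 0.566 CPM with sgRNA1 and 73.2 ± 0.973 CPM with sgRNA2, against 201 ± 5.97 CPM in control (SD, n = 2 each). With IFN-gamma it averaged 204 ± 6.46 CPM with sgRNA1 and 124 ± 1.47 CPM with sgRNA2, against 98.8 ± 3.74 CPM in control. Its group means stood in the order sgRNA2, sgRNA1, control with vehicle, as did those of 38 members. With IFN-gamma the order was control, sgRNA2, sgRNA1, as it was for 35 members. How many of all genes tested share these orders was not counted. In the sgRNA1 line Myc rose with IFN-gamma (0.38 ± 0.04, adjusted p = 5.56e-07, edgeR), where 12 members rose and 22 fell. Its mean was as high with sgRNA1 and IFN-gamma as in control with vehicle, within the spread of the libraries, whereas 34 members had their highest group mean in control with vehicle and 4 with sgRNA1 and IFN-gamma. Its interaction was 1.60 ± 0.06 (adjusted p = 8.86e-14, edgeR). The 9 members with an E-box in the promoter window had a median log2 fold change of -0.95 (-2.09 to -0.30) in the mean of the guides with vehicle, against -1.07 (-1.69 to -0.04) for the 28 without. For IFN-gamma in control the medians were -1.54 and -1.59, and for the interaction 2.17 and 1.93. The ranges overlapped almost wholly in each comparison, and no difference between the 2 sets was tested. The part of Myc in the members' levels was not tested either.

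Fold changes of all genes also leaned on exon length. Over 13359 genes with a length, Spearman's rho of log2 fold change with exon length was -0.27 for the mean of the guides with vehicle and -0.37 for sgRNA1 with vehicle. It was 0.17 for IFN-gamma in control and 0.03 for the interaction. Over the 43 members it was -0.37, -0.43, -0.01 and 0.23. Once the trend was removed, the median of the members was -1.06 for the mean of the guides with vehicle, -1.52 for IFN-gamma in control and 1.93 for the interaction. The strand setting of the counts was not given. For members whose exons overlap another gene, part of the count may come from that gene or be left out. Exons of Tsr1 overlapped Srr on the opposite strand over 32.3% of their length, those of Noc2l overlapped Samd11 over 20.9% and those of Utp14a overlapped 9530027J09Rik over 11.5%. Within 8 members lay 23 annotated snoRNA genes, among them Nop56, Gnl3, Ncl and Wdr43, and reads of Npm1 may be shared with processed copies of that gene.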

How the data were processed

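RNA was measured in 12 libraries. The authors deposited raw counts for each gene as whole numbers. Per the submitters' processing notes, mm10 was the build and the tools were HTSeq (no version given), STAR 2.4.0 and DESeq2 1.10; no step is named for any of them. The annotation, strand setting and filters were not given in the sources used here. The labels' protocols give a TruSeq RNA kit and 1 ug of total RNA. Groups came from sample titles and the treatment entry; the treatment protocol text names IFN-gamma for the vehicle libraries too.

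The counts were tested with edgeR 4.0.16 in R 4.3.3 (quasi-likelihood F test, TMM scaling, filterByExpr with a minimum count of 10 and a minimum total of 15) in 1 fit of 6 groups and 12 libraries with 6 residual degrees of freedom. P-values were adjusted by Benjamini-Hochberg over 13601 genes, and a gene was called below 0.05. The mean of the guides was taken on the log scale. SE is the fold change divided by the root of its F statistic, so it restates the test. TMM factors were 0.963 to 1.09. The common dispersion gave a biological coefficient of variation of 4.67%. The chi-square per degree of freedom within groups was 2.71 to 6.95, so no library was counted as a copy of another.

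CPM used TMM-scaled totals, and RPKM the merged exon length in GENCODE vM21 (GRCm38, the same assembly as mm10), where 15941 of 16283 gene names matched, 5 more by a synonym and 337 not. Shares of counts and marker levels used unscaled totals. Promoters are from RefSeq GRCm38.p6. The script was tested on simulated data.

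Values in every library are given for Polr1a, Polr1b, the 4 called members with the largest fall and the 2 with the largest rise in the main comparisons and the interaction, and the member of highest mean CPM in each role. Of other pathway genes the largest fall and rise are named. Other members named for single values were chosen after their values were seen. The members and lists were chosen with earlier results of these data known. Alternatives were RLE, upper quartile or total count scaling, no filter, DESeq2 1.42.0, a replicate block, removal of the length trend (lowess of log CPM on exon length, span 0.3), the guides as 1 group, and leaving out each library.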

Additional observations from a re-analysis of the deposited data

Results flagged for a closer look

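The response to IFN-gamma differed between the guide lines and control, by the interaction test of edgeR, for 42 of the 43 members, all more positive in the guide lines. Listed here are the called members given in every library, which leaves out Npm1 (not called). The difference on the log2 scale was 3.45 for Rrp12, 2.75 for Nop2 and 2.74 for Mdn1. It was 2.62 for Nolc1, 2.46 for Nop56 and 2.30 for Utp20. It was 2.29 for Rrs1, 2.04 for Polr1b, 2.02 for Ppan, 2.003 for Gnl3, 1.91 for Nhp2, 1.82 for Polr1a, 1.42 for Wdr43 and 1.04 for Ncl. With the 4 guide libraries as 1 group, 18 of the 43 kept a call. The groups of 2 libraries were too small for a test of single libraries that stand apart.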

How the results depend on the processing

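With the guide libraries as 1 group, the members called numbered 14 in place of 41 (guides against control, vehicle), 5 in place of 38 (IFN-gamma), 6 in place of 31 (IFN-gamma against vehicle in the guides) and 18 in place of 42 (interaction), since the difference between guides then enters the spread. Leaving out each library in turn gave 41 to 42, 37 to 39, 28 to 30 and 42 to 42 members in these comparisons, 42 to 42 for IFN-gamma in control, and 33 to 37 (sgRNA1) and 43 to 43 (sgRNA2) against control with vehicle. Npm1 changed sign with upper quartile scaling with vehicle (0.084) and with IFN-gamma (0.0369), and with total counts (0.073). Its interaction near 0 turned to -0.0062 (RLE), -0.0471 (upper quartile), -0.0077 (DESeq2), -0.0312 (length trend, with or without the block), -0.0022 (guides as 1 group), and -0.0151 to 0.0832 over libraries left out. Ncl with IFN-gamma turned to 0.0229 with the length trend removed, with or without the block; the cause was not tested. Scaling moved the all-gene median and the percent of calls that were higher. Upper quartile scaling moved the median by 0.135 with vehicle (62.1%, against 50.2%), 0.104 for sgRNA1 (62.8%, against 48.8%) and 0.166 for sgRNA2 (62.5%, against 52.3%). It moved it by -0.108 for IFN-gamma in the guides (39.4%, against 50.3%; total counts 61.5%) and -0.121 in sgRNA2 (38.1%, against 51.1%). Total counts moved it by 0.124 for the guides with IFN-gamma (60.4%, against 49.3%), 0.175 for sgRNA1 (63.3%, against 48.7%), 0.148 for IFN-gamma in sgRNA1 (65.2%, against 51.7%), 0.148 in the interaction (57.8%, against 47.8%), -0.0789 for the difference in response between guides (38.6%, against 48.7%) and -0.100 between guides with IFN-gamma (33.0%, against 48.8%). Libraries with the same number did not deviate together (correlations from -0.0788 to 0.0642). The fit with the replicate block called 41, 38, 31 and 42 members in the 4 comparisons above. The lowest count of any member in any library was 112.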
